A study of Mus musculus with 12 samples.

Results

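The 5 genes described here are Il10, Il21, Maf, Il21r and Il10ra, 5 of the 16353 genes in the deposited count table, found by their symbols. They were chosen by their CPM (a gene's reads scaled to the same library total) in the 4 groups of the study, so their levels and differences are given as a description without a test. All 5 had enough reads to enter the fit across 12499 genes. The libraries were made from CD8 T cells of KB5 mice, which carry a transgenic T cell receptor for a C57BL/6 antigen, on the CBA/J background, sorted from spleen on that receptor and CD8 to 95% purity. The naive group was left untreated. The activated group had received 10000000 C57BL/6 splenocytes intravenously as a source of antigen. For the tolerized group 0.5 mg of anti-CD154 was added, which binds CD40 ligand, a costimulatory molecule of T cells. The inflamed group had received the splenocytes, the antibody and 100 µg of lipopolysaccharide (LPS), a bacterial cell wall product. Spleens of treated mice were taken after 12 h, and each group had 3 libraries. The labels call the libraries independent and do not name separate animals, and their extraction text speaks of cultured embryonic fibroblasts, which the CD8 marker levels below go against. The p-values therefore measure the spread between these samples, which may be technical.

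IL-10 is a secreted cytokine that restrains inflammation, made by many activated T cells, B cells and myeloid cells. It acts through a receptor of the ligand-binding chain Il10ra and the shared chain Il10rb, which use the kinases Jak1 and Tyk2 and the transcription factor Stat3. IL-21, best known from CD4 helper T cells, supports B cells and CD8 T cells through Il21r and the common gamma chain Il2rg, with Jak1, Jak3 and Stat3. Maf (c-Maf) is a bZIP transcription factor known to act at both Il10 and Il21 in T cells, and it is also expressed in macrophages.

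All 5 genes are placed here on GRCm38 with RefSeq coordinates. Il10 lies on chromosome 1 from 131019845 to 131024970, Il21 on chromosome 3 from 37222759 to 37232636 and Maf on chromosome 8 from 115703253 to 115706894. Il21r lies on chromosome 7 from 125603252 to 125634397 and Il10ra on chromosome 9 from 45253837 to 45269149. Antisense genes overlap Il21 (Gm12534) and Maf (Gm15655) in the GENCODE annotation, and a processed pseudogene on the other strand (Gm20612) overlaps Il10ra. Since the labels do not say that strand was used in counting, reads of such a pair cannot be told apart. The microRNA gene Mir7086 lies within Il10ra on the same strand.

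The RefSeq promoter table held 2 of the 5 genes, Il21 and Il21r. The 250 bases before the Il21 start (GRCm38.p6, chr3:37232637-37232886, minus strand, written 5′ to 3′ along the gene) are shown because Il21 went from no read in the tolerized libraries to a measurable level in all 3 inflamed ones. Capitals mark the letters GGAAA, the core of NFAT sites, on either strand.

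Il21 upstream: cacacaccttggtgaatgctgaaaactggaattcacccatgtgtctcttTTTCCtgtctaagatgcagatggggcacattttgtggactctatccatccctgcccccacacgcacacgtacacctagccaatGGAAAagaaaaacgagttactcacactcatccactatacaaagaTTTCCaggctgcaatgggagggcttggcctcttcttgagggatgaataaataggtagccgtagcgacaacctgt

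The GGAAA letters occur 3 times, starting 201, 118 and 74 bases before the start, and 55.6% of 32851 windows of this length in the table hold at least 1 match. No match was present in this window for the AP-1 letters TGANTCA (6.75% of windows), the Maf half-site TGCTGAC (3.81%) or the STAT letters TTCNNNGAA (7.02%), each searched on both strands with N for any base. These matches describe the sequence and are not measured binding sites.

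Il10 was close to silent in 3 of the groups and clearly read in the inflamed one. The raw reads were 6, 7 and 13 in the naive libraries, 0, 0 and 4 in the activated, 0, 2 and 17 in the tolerized, and 372, 688 and 580 in the inflamed. On the CPM scale the inflamed libraries stood at 11.4, 13.4 and 14.4. The highest level outside this group was 0.495 CPM, in tolerized replicate 3. All 3 inflamed libraries therefore lay above the other 9, whose groups overlapped one another.

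The group means of Il10 were 13.1 ± 1.54 CPM in inflamed, 0.181 ± 0.141 in naive, 0.180 ± 0.274 in tolerized and 0.0250 ± 0.0433 in activated cells (SD, n = 3). Summed over libraries and scaled by depth, the level in inflamed cells was 73.2 times that in tolerized cells, with an exact conditional 95% interval from 46.7 to 122 that covers counting error only. Against naive cells the ratio was 91.4 (62.1 to 140.3), and against activated cells, where only 4 reads were seen, it was 391 (153 to 1438). Single libraries carried much of the denominator. Of the 19 tolerized reads 17 were in tolerized replicate 3, and the ratio was 469 (130 to 3877) without it and 47.1 without tolerized replicate 2. It was 58.4 against naive cells without naive replicate 2 and 144 without naive replicate 3. Without activated replicate 3, which held all 4 activated reads, Il10 was at least 287-fold higher than in activated cells, taking 3 reads over the group. On the log2(CPM + 1) scale, which understates changes of low genes, Il10 was 3.59 ± 0.17 (SE) higher in inflamed than in tolerized cells and 3.77 ± 0.17 higher than in activated cells. With a pseudocount of 0.1 these differences were 6.00 and 6.76, and with a pseudocount of 5 they were 1.80 and 1.84.

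Il21 followed the same order of inflamed over other libraries at a lower level. Its reads numbered 5, 14 and 4 in the naive libraries, 0, 2 and 6 in the activated, 0, 0 and 0 in the tolerized, and 82, 260 and 179 in the inflamed. The inflamed libraries stood at 2.51, 5.06 and 4.45 CPM, and no other library exceeded 0.146 CPM. Inflamed replicate 1 was the lowest of its group for both cytokine genes.

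Taking 3 reads over the tolerized group as the limit that a count of 0 allows, Il21 was at least 147-fold higher in inflamed than in tolerized cells. It was 62.1 times the activated level (31.3 to 145, counting error only) and 32.8 times the naive level (21.6 to 52.2). Without activated replicate 3 the ratio to activated cells was 137 (37.7 to 1133), and without tolerized replicate 2 it was at least 84.8-fold higher than in tolerized cells. Taken in each tolerized library alone, 3 reads correspond to 0.0670 to 0.114 CPM, a wider limit than 3 reads over the whole group. Il21 was not detectable in the tolerized libraries at this depth. The fitted log2 differences were 2.29 ± 0.17 against tolerized and 2.21 ± 0.17 against activated cells. They rose to 5.30 and 4.73 with a pseudocount of 0.1 and shrank to 0.84 and 0.82 with a pseudocount of 5.

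Maf was not silent anywhere and showed 3 levels. Naive libraries stood at 14.4, 30.3 and 28.0 CPM, activated at 9.11, 4.53 and 3.67, tolerized at 3.15, 3.08 and 6.17, and inflamed at 82.0, 73.7 and 69.3. The inflamed group lay above the naive group and the naive group above the other 2, which overlapped. Maf was therefore low after splenocytes, with or without the antibody, and above its naive level when LPS had been added.

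Group means of Maf were 75.0 ± 6.45 CPM in inflamed, 24.2 ± 8.63 in naive, 5.77 ± 2.92 in activated and 4.13 ± 1.76 in tolerized cells. Its log2 difference was 3.94 ± 0.35 between inflamed and tolerized cells and 3.57 ± 0.35 between inflamed and activated cells. Against naive cells Maf was higher by 1.65 ± 0.35 in inflamed cells, while it fell by 1.91 ± 0.35 in activated and by 2.28 ± 0.35 in tolerized cells. Tolerized and activated cells differed by -0.37 ± 0.35, an interval from -1.13 to 0.40 (95%).

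**Figure D1:**
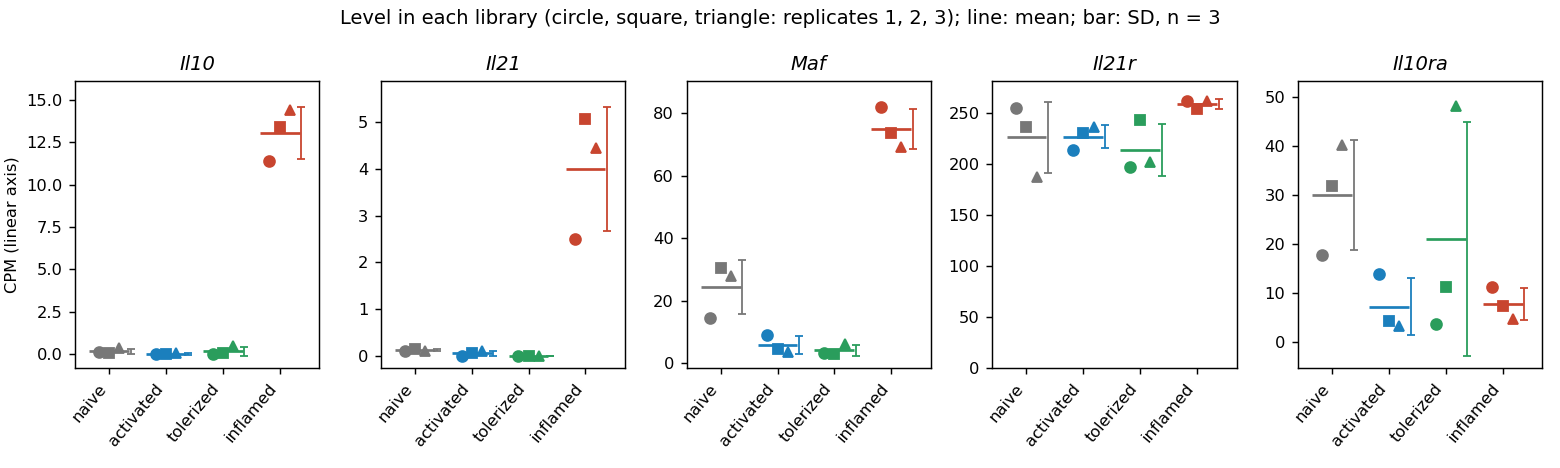
CPM of each gene (linear axis, 1 panel per gene) in the 12 libraries by group; points are libraries, lines are group means and bars are SD of 3 libraries. Il10, Il21 and Maf are highest in the 3 inflamed libraries, Il21r stands between 187 and 262 CPM throughout, and Il10ra reaches 48.2 CPM in 1 tolerized library.

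The receptor genes did not follow the ligands. Il21r, the specific chain of the IL-21 receptor, was abundant in all 12 libraries. It stood at 255, 237 and 187 CPM in naive, 214, 230 and 237 in activated, 197, 243 and 202 in tolerized, and 262, 254 and 262 in inflamed libraries. The inflamed libraries were above every activated and tolerized one but not above naive replicate 1.

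The differences of Il21r between groups were small beside those of its ligand. Inflamed exceeded tolerized cells by 0.28 ± 0.12 (95% interval 0.03 to 0.54) and activated cells by 0.19 ± 0.12 (-0.06 to 0.45) on the log2 scale. Activated and naive cells differed by 0.02 ± 0.12 (-0.24 to 0.27). With library size alone as the scale, the 3 differences from naive cells were all negative, at -0.26 in activated, -0.38 in tolerized and -0.12 in inflamed cells, so their direction depends on the scaling.

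Il10ra, the ligand-binding chain of the IL-10 receptor, had the largest standard error of the 5 on the log2(CPM + 1) scale. It stood at 17.8, 31.9 and 40.1 CPM in naive, 13.9, 4.34 and 3.30 in activated, 3.61, 11.3 and 48.2 in tolerized, and 11.3, 7.30 and 4.74 in inflamed libraries. Tolerized replicate 3 was the highest of all 12 libraries, and the tolerized group overlapped each of the others. The naive libraries lay above all activated and inflamed ones.

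The log2 difference of Il10ra from naive cells was -2.07 ± 0.76 in activated and -1.81 ± 0.76 in inflamed cells. Tolerized exceeded activated cells by 1.01 ± 0.76, and this was 0.11 without tolerized replicate 3 and 1.80 without tolerized replicate 1. Inflamed cells stood -0.75 ± 0.76 from tolerized cells, and 0.16 without tolerized replicate 3. In that replicate Itgax, an integrin gene of the dendritic cell list, was at 35.9 CPM against 2.89 and 3.19 in the other tolerized libraries. Its monocyte and neutrophil markers summed to 95.1 CPM against 16.5 and 18.6, its B cell markers to 214 against 102 and 162, and its red pulp macrophage markers to 53.1 against 175 and 143. Of the 95.1 CPM, 60.2 were Ly6c2, against 1.06 and 1.81 CPM in the other tolerized libraries. From the same list Itgam was also higher there (8.995 against 0.722 and 1.12 CPM) and Lyz2 lower (6.55 against 11.9 and 9.53 CPM). These genes were named after their values were seen. Within the activated and the inflamed group Il10ra had the same order over libraries as the summed macrophage markers, which were at 890, 223 and 78.3 CPM in activated and 440, 184 and 14.4 CPM in inflamed libraries. Naive replicate 1 was the lowest naive library in both. The part of these transcripts in the Il10ra level was not tested.

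Between genes, levels are compared per kb of exon. In inflamed cells Il21r was at 99.4 ± 1.89 CPM per kb, Maf at 20.6 ± 1.77, Il10 at 10.0 ± 1.18, Il10ra at 2.23 ± 0.948 and Il21 at 1.30 ± 0.434. In tolerized cells Il21r was at 82.1 ± 9.69, Il10ra at 6.02 ± 6.82, Maf at 1.14 ± 0.484 and Il10 at 0.138 ± 0.210 CPM per kb, with no Il21 read. By group mean Il10 thus stood above Il10ra in inflamed cells and below it in the remaining groups.

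**Figure D2:**
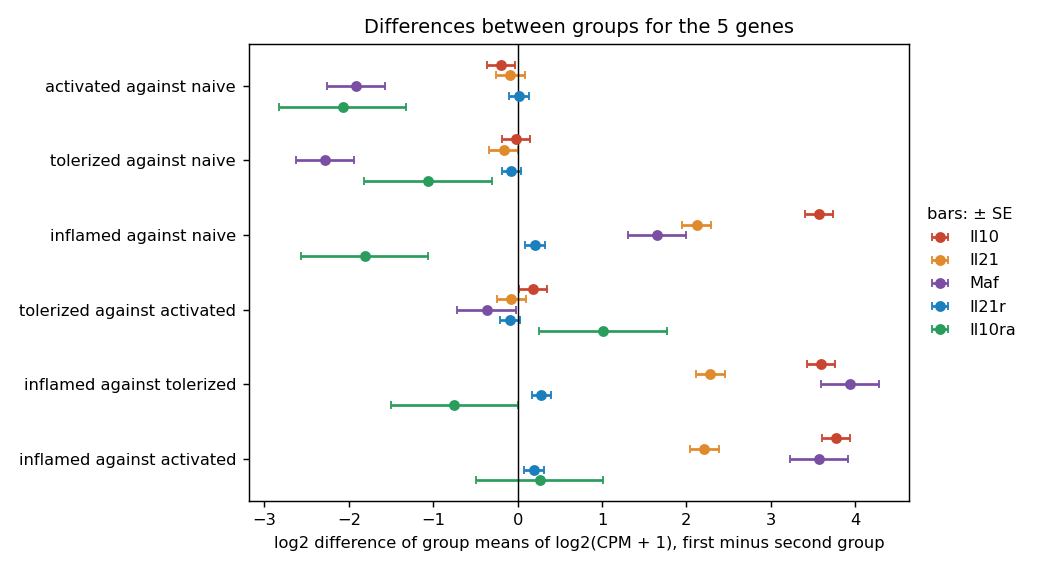
Log2 difference of log2(CPM + 1) between groups for the 5 genes (horizontal axis, first minus second group; bars are SE; 3 libraries per group). Il10, Il21 and Maf lie at 2.21 or more in the comparisons of inflamed with tolerized and activated cells, and close to 0 or below it between tolerized and activated cells, where Il10 is at 0.18.

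Counts of calls use limma with Benjamini-Hochberg adjusted p under 0.05 over all 12499 genes. Between inflamed and tolerized cells 3 of the 5 genes were called higher and none lower, where 1.66% of all genes were called higher and 1.12% lower. Between inflamed and activated cells it was again 3 higher and none lower, beside 1.54% and 0.384% of all genes. These 2 comparisons share the inflamed libraries. Between tolerized and activated cells 0 of 5 were called, as were 0% of all genes by limma or limma-voom, with 531 genes at an unadjusted p under 0.05. Since the genes were chosen on these values, nothing is read from their counts.

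Against naive cells most genes of the table were called, so a call there says little. With library size alone as the scale the median of all genes shifted by -0.22 to -0.27 (log2), and the share of higher among called genes went from 49.97% to 39.1% in activated, 51.0% to 39.6% in tolerized and 51.0% to 38.6% in inflamed cells. Of the 5, 2 were lower in activated cells (Maf and Il10ra; 35.3% of all genes higher and 35.3% lower). In tolerized cells 1 was lower (Maf; 37.4% higher and 35.9% lower). In inflamed cells Il10, Il21 and Maf were higher and Il10ra lower (36.9% higher and 35.5% lower). The Il10ra calls were lost in 4 of 12 fits that left out a library for activated cells, each without naive replicate 2 or 3 or activated replicate 2 or 3. For inflamed cells they were lost in 8 of 12, namely without naive replicate 2 or 3, activated replicate 2 or 3, tolerized replicate 2 or any of the inflamed libraries.

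The sorted cells held some RNA of other spleen cells, and part of it moved with the groups. Cd8a ran from 858 to 1671 CPM and Cd8b1 from 328 to 1312 CPM, while Cd4 was at most 24.0 CPM. The 6 markers of CD4 helper and regulatory T cells summed to 71.5 to 115 CPM over all libraries. Foxp3, a regulatory T cell marker, stood at 31.8 to 49.9 CPM with no group apart. Cxcr5, a chemokine receptor gene of follicular helper T cells and B cells named after its values were seen, was at 43.9, 39.9 and 35.7 CPM in the inflamed libraries and at most 30.0 CPM elsewhere. Of the 6 markers only Cxcr5 was called higher than in activated cells (1.57 ± 0.30, adjusted p = 0.0234, limma), and 0 were called lower. It did not pass against tolerized cells (0.92 ± 0.30, adjusted p = 0.16). Against activated cells Ikzf2, Cd4, Cd40lg and Foxp3 stood at -2.17, -0.43, -0.20 and -0.11 and Zbtb7b at 0.20, with a median of -0.15 for the 6. The part of helper T cell transcripts in the Il21 level was not tested. The 14 red pulp macrophage markers, which in macrophages accompany Maf, summed to 1049 to 2656 CPM in naive, 78.3 to 890 in activated, 53.1 to 175 in tolerized and 14.4 to 440 in inflamed libraries. The 9 monocyte and neutrophil markers summed to 17.8 to 273 CPM in inflamed and 16.5 to 95.1 CPM in tolerized libraries. In bulk RNA, fewer cells of a type and less RNA per cell cannot be told apart.

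The inflamed libraries differed in these transcripts. Inflamed replicate 1 had 440 CPM of macrophage and 273 CPM of monocyte and neutrophil markers, replicate 2 had 184 and 116, and replicate 3 had 14.4 and 17.8. In replicate 3 the colony stimulating factor receptor gene Csf1r was at 0.621 CPM, the complement gene C1qa at 0.546 and the neutrophil gene S100a8 at 2.86. No read was found there for Cd5l and Mrc1, 2 of the 14 macrophage markers, named after their values were seen. The highest of the 14 there were Hmox1 at 5.29 and Axl at 4.54 CPM. Of the monocyte and neutrophil markers S100a9 was the highest there, at 6.26 CPM. These too were named after their values were seen. Il10 was at 11.4, 13.4 and 14.4 CPM in replicates 1, 2 and 3, Il21 at 2.51, 5.06 and 4.45 and Maf at 82.0, 73.7 and 69.3. With replicate 3 as the sole inflamed library, a fit chosen after seeing the data, the differences from tolerized cells were 3.74 for Il10, 2.46 for Il21 and 3.83 for Maf. The lone sample is there assumed to vary like the other groups.

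Sums are also given for other marker lists. Dendritic cell markers summed to 160 to 299 CPM in inflamed and 66.5 to 107 in tolerized libraries. Of these sums 147 to 254 CPM and 46.1 to 46.6 CPM were Bst2, an interferon-induced gene named after its values were seen. NK cell markers summed to 234 to 283 CPM in inflamed and 129 to 277 in tolerized libraries, of which 229 to 274 and 128 to 256 CPM were Nkg7, a gene that effector CD8 T cells also express, named after its values were seen. Ncr1, the defining NK cell marker, was at 0.156 to 0.596 CPM in inflamed and 0.402 to 1.11 CPM in tolerized libraries, and 0 of 5 NK cell markers tested were called between these groups by limma (Ncr1 adjusted p = 0.482). B cell markers, from cells known to express Il21r and to make IL-10, summed to 103 to 150 CPM in inflamed and 102 to 214 in tolerized libraries. The same markers summed to 436 to 556 CPM in naive and 121 to 155 CPM in activated libraries. The part of these markers in the results was not tested. For Maf in naive cells, the replicate with the fewest macrophage transcripts, replicate 1, was also the lowest in Maf. Within the activated and the inflamed group Maf had the same order over libraries as the summed macrophage markers. Among tolerized libraries, replicate 3 had the fewest macrophage transcripts and the highest Maf. The part of macrophage transcripts in the Maf level was not tested.

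**Figure D3:**
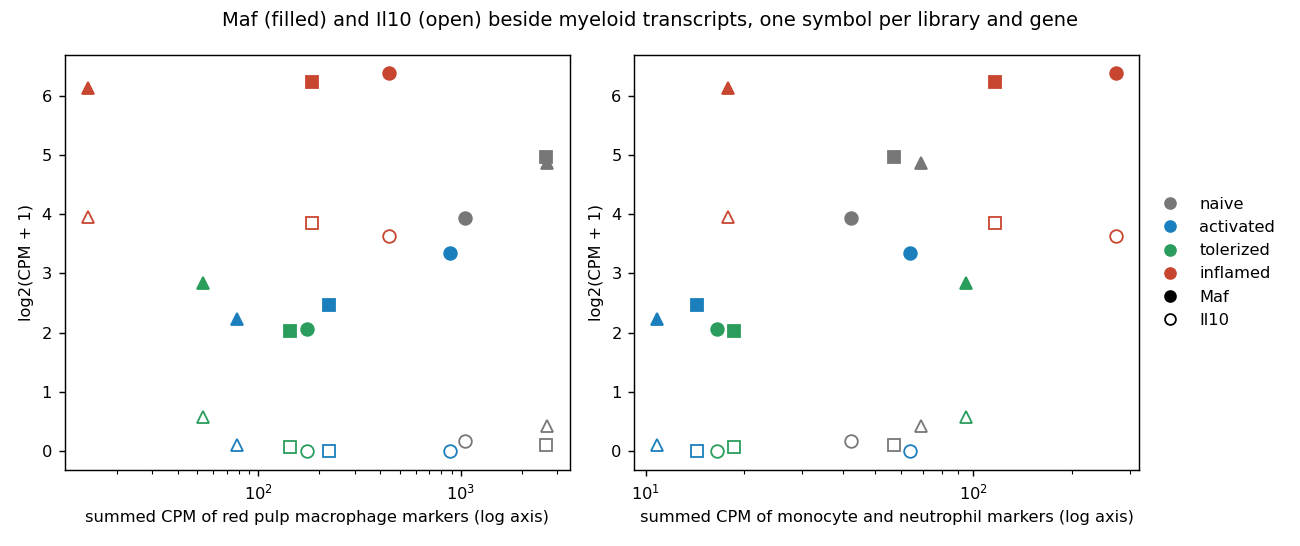
Log2(CPM + 1) of Maf (filled) and Il10 (open) in each library against the summed CPM of red pulp macrophage markers (left) and of monocyte and neutrophil markers (right), with log horizontal axes and replicates 1, 2 and 3 as circle, square and triangle. Inflamed replicate 3 has 14.4 CPM of macrophage markers and 17.8 CPM of monocyte and neutrophil markers, with 69.3 CPM of Maf and 14.4 CPM of Il10.

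Around these 5 genes, 61 other genes of 8 lists (partners, relatives and known regulators) could be tested, out of 67 in the table. The lists were chosen with earlier results of these data known. Their counts and medians, here and per list below, therefore only describe. Between inflamed and tolerized cells 12 rose and 2 fell (1.66% and 1.12% of all genes), and the median log2 difference was 0.19 against -0.01 for all genes. Between inflamed and activated cells 11 rose and 1 fell (1.54% and 0.384%), with a median of 0.24 against -0.01. None of the 61 passed between tolerized and activated cells, where 6 had an unadjusted p under 0.05. Without tolerized replicate 1 it was 3 of 61. The 14 calls against tolerized cells became 9 without tolerized replicate 2 and 8 without inflamed replicate 1 or 2.

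The other receptor chains and kinases of the IL-10 and IL-21 receptors did not pass between inflamed and tolerized cells. Il10rb, the second IL-10 receptor chain, was at 32.7 ± 3.30 CPM in inflamed and 36.5 ± 9.82 CPM in tolerized cells, and Il2rg at a log2 difference of -0.07 ± 0.10 between them. The kinase genes stood at -0.28 ± 0.16 for Jak1, -0.28 ± 0.15 for Tyk2 and 0.71 ± 0.49 for Jak3, with adjusted p of 0.498, 0.452 and 0.611 (limma). Against naive cells Il10rb fell by 0.72 ± 0.19, Jak1 by 1.11 ± 0.16 and Tyk2 by 0.91 ± 0.15 on the log2 scale in inflamed cells.

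Stat3, the transcription factor used by both receptors, rose. It stood at 470 ± 39.5 CPM in inflamed, 259 ± 17.0 in tolerized, 269 ± 14.6 in activated and 206 ± 21.7 in naive cells. The log2 difference was 0.85 ± 0.10 from tolerized (adjusted p = 0.00106, limma) and 0.80 ± 0.10 from activated cells (adjusted p = 0.00194), and all 3 inflamed libraries were above all others.

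Against tolerized cells 4 of 9 genes of the IL-10 receptor list and 4 of 11 of the IL-21 receptor list rose and none fell, and against activated cells 2 of 9 and 2 of 11 rose. The lists share 3 genes, so that 6 and 3 distinct genes of 17 rose, with Stat3 counted in both lists each time and Socs3 in both against tolerized cells. Socs1, a feedback inhibitor of cytokine receptors, rose from 11.1 ± 2.60 to 53.8 ± 2.56 CPM, by 2.20 ± 0.15 (adjusted p = 6.09e-05, limma), and was 1.71 ± 0.15 above activated cells (adjusted p = 0.000225). Sbno2, known as an IL-10-induced gene, was higher by 0.73 ± 0.10 (adjusted p = 0.00256), and by 0.58 ± 0.10 over activated cells (adjusted p = 0.0109), the last lost without activated replicate 1 or 2 or inflamed replicate 1 or 2. With the replicate number as a block in the inflamed and activated groups alone its adjusted p was 0.186. Bcl3, a nuclear IkB protein gene, was higher by 1.94 ± 0.37 (adjusted p = 0.0193), and its call was lost without tolerized replicate 2, inflamed replicate 1 or inflamed replicate 2.

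Socs3, the inhibitor induced by Stat3, was near its threshold. It stood at 171, 161 and 145 CPM in naive, 7.92, 24.5 and 56.5 in activated, 4.52, 2.95 and 12.0 in tolerized, and 44.7, 51.4 and 26.2 in inflamed libraries. The inflamed group lay above the tolerized one (2.61 ± 0.60, adjusted p = 0.0469, limma), overlapped the activated one and was below the naive one. The call against tolerized cells was lost in 9 of 12 fits that left out a library, with a highest adjusted p of 0.192.

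Among receptors for cytokines that act upstream of Il10 and Il21, 3 of 9 genes rose against tolerized cells and 2 of 9 against activated cells. Both chains of the IL-12 receptor were among them. Il12rb1 rose from 21.8 ± 0.863 in tolerized to 82.3 ± 8.52 CPM in inflamed cells (1.86 ± 0.11, adjusted p = 2.11e-05, limma) and Il12rb2 from 1.56 ± 0.162 to 7.92 ± 0.836 CPM (1.80 ± 0.15, adjusted p = 0.000169). The other gene that rose against tolerized cells was Il6st, which encodes gp130 and is named here after its values were seen (0.92 ± 0.17, adjusted p = 0.0147). Its call was lost without tolerized replicate 2 or inflamed replicate 1 or 2. The IL-27 receptor gene Il27ra stood at -0.09 ± 0.37 (adjusted p = 0.969).

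Of 17 transcription factors known to act at Il10 or Il21 other than Maf, 2 rose and 1 fell against tolerized cells. Tbx21, which encodes T-bet, rose from 14.8 ± 13.8 to 124 ± 35.7 CPM (3.28 ± 0.45, adjusted p = 0.00289, limma). In the 2 groups alone its adjusted p was 0.0652, and with inflamed replicate 3 as the sole inflamed library it was 0.195. Eomes, a relative of T-bet, fell by 1.04 ± 0.22 on the log2 scale (adjusted p = 0.033), a call lost in 8 of 12 fits that left out a library. Tbx21 also passed against activated cells, at 3.94 ± 0.45 (adjusted p = 0.00139), and this was 0.114 with inflamed replicate 3 as the sole inflamed library.

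Several factors best known beside Maf at these genes did not pass between inflamed and tolerized cells. Irf4 differed by 0.04 ± 0.36, Batf by 0.65 ± 0.25, Nfil3 by 0.57 ± 0.29, Ahr by 0.40 ± 0.15 and Bhlhe40, a repressor of Il10, by 0.78 ± 0.50. Prdm1, the gene of Blimp-1, stood at 2.30 ± 0.529 CPM in inflamed and 1.53 ± 1.68 CPM in tolerized cells (0.56 ± 0.38), and at 6.49 ± 1.81 CPM in naive cells. Bcl6 stood at -0.48 ± 0.21 (adjusted p = 0.335, limma).

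Of 7 other Maf, small Maf and Bach genes tested, none passed between inflamed cells and either tolerized or activated cells. The small Maf gene Mafg differed by 0.28 ± 0.19 and Bach2, a repressor that pairs with small Maf proteins, by 0.05 ± 0.13 between inflamed and tolerized cells.

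Of the IL-10 family, Il19, Il22 and Il24 had at most 4 reads in any library and were not tested. Il2, which activated T cells make and which shares the common gamma chain, was at 4.78 ± 3.98 CPM in activated, 3.69 ± 1.38 in tolerized and 2.31 ± 0.297 in inflamed cells, against 0.0299 ± 0.0104 in naive cells. Its difference between inflamed and tolerized cells was -0.47 ± 0.37 (adjusted p = 0.683, limma). All 9 antigen-exposed libraries lay above the naive ones for Il2. Il15, another ligand of receptors with the common gamma chain, was at 1.27 ± 0.627 CPM in naive, 0.223 ± 0.181 in activated, 0.0507 ± 0.0877 in tolerized and 0.440 ± 0.448 in inflamed cells. It was called lower than naive in all 3 exposed groups, beside 35.3% to 35.9% of all genes. Il15 did not pass between inflamed and tolerized cells (0.41 ± 0.25, adjusted p = 0.518, limma). Over the naive and over the inflamed libraries Il15 had the same order as the summed macrophage markers, but not over the activated ones. The part of macrophage transcripts in the Il15 level was not tested.

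Of 11 surface and effector genes used as markers of IL-10-secreting T cells, 1 rose and 1 fell against tolerized cells, and 3 rose and 1 fell against activated cells. The inhibitory receptor gene Tigit rose from 9.93 ± 5.75 to 28.6 ± 2.22 CPM (1.59 ± 0.33, adjusted p = 0.0299, limma), a call lost in 7 of 12 fits that left out a library. Cd226, which encodes the activating receptor for the same ligands, fell from 108 ± 16.1 to 56.3 ± 8.95 CPM (0.93 ± 0.13 on the log2 scale, adjusted p = 0.00318), with an adjusted p of 0.0591 in the 2 groups alone. Against activated cells Ctla4 was higher by 4.07 ± 0.71, a call lost without activated replicate 2 or inflamed replicate 2. Gzmb was higher by 3.03 ± 0.61, a call lost in 8 of 12 such fits. Lag3, at -0.03 ± 0.22, and Pdcd1, at -0.02 ± 0.24, did not pass between inflamed and tolerized cells.

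**Figure D4:**
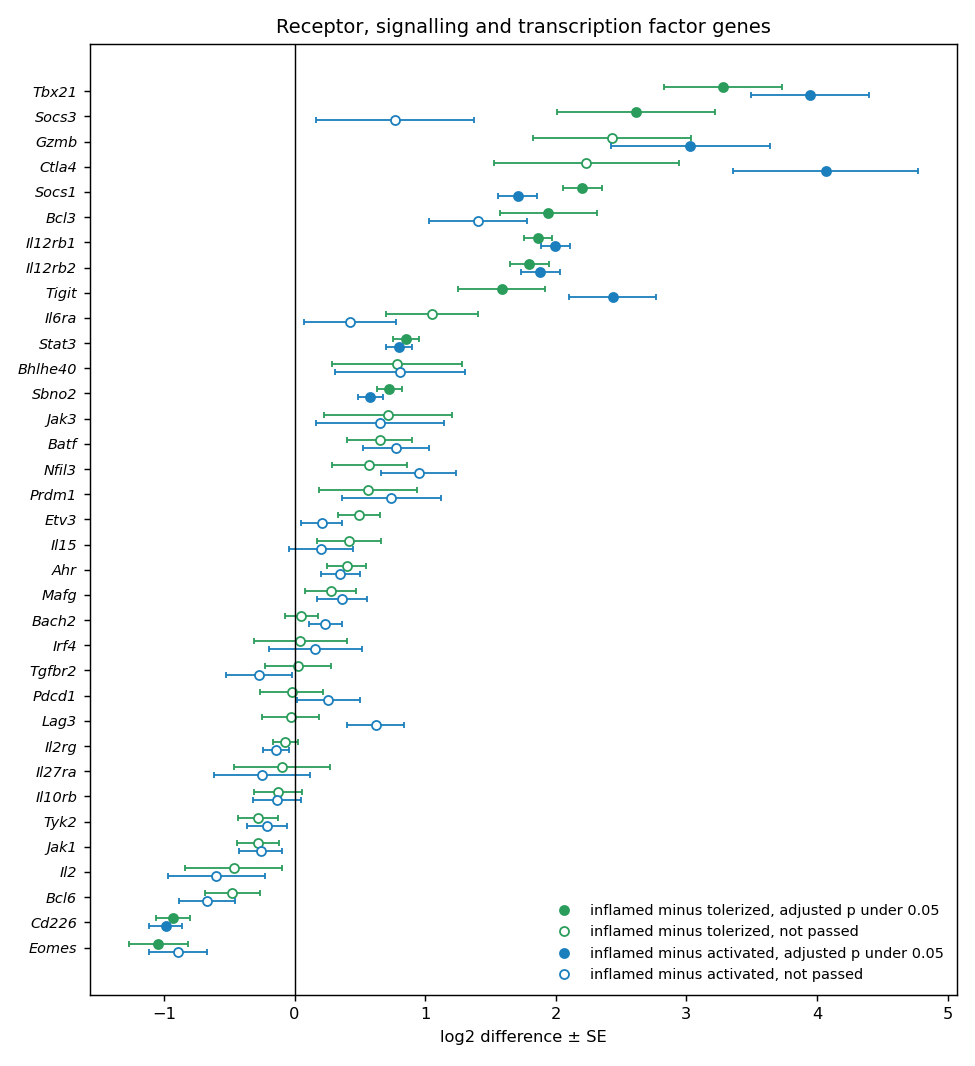
Log2 difference ± SE of partner, signalling and regulator genes between inflamed and tolerized (green) and inflamed and activated cells (blue); filled points have an adjusted p under 0.05 (limma, all genes), open points do not. Tbx21, Socs1, Il12rb1, Il12rb2 and Stat3 are filled on the right in both comparisons, and Cd226 on the left.

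Of the 14 calls between inflamed and tolerized cells, 8 were kept whichever single library was left out, and so were 8 of the 12 between inflamed and activated cells. With inflamed replicate 3 as the sole inflamed library 5 of 14 and 4 of 12 were kept, in a fit with fewer samples. Same-numbered libraries of inflamed and activated cells correlated at 0.64, 0.23 and 0.15 in their deviations from the group means. Only 1 replicate number was the best match both ways, so a pairing by number is uncertain. In these 2 groups alone with the replicate number as a block, 9 of the 12 calls were kept. Sbno2 and Cd226 (adjusted p = 0.0538, limma) were among those lost, and 67 genes of the table were called in place of 240.

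The genes whose pattern was most like that of each member were sought by Pearson's r of log2(CPM + 1) among 10231 genes. Over all 12 libraries the nearest to Il10 were Amica1 (r = 0.984), Il21 (0.983) and Smad3 (0.978), and among those nearest to Il21 were Il10 (0.983) and Il12rb2 (0.971). Those of Maf were Tmem184b (0.989), Frmd4b (0.969) and Ifih1 (0.962). Over the 9 antigen-exposed libraries the nearest were Il12rb2 (0.989), Tmem184b and Isg15 to Il10, among others Il12rb2 (0.984) and Kcnf1 to Il21, and Srgn (0.994), Tmem184b and Frmd4b to Maf. The points share libraries and groups, and inflamed against other libraries makes up most of the spread, so these values only describe.

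Amica1, a junctional adhesion gene, was at 143 ± 12.4 CPM in inflamed cells and 21.1 ± 4.96 to 22.8 ± 9.82 CPM in the other groups. Smad3, a mediator of TGF-beta signals, was at 201 ± 10.4 CPM in inflamed and 32.6 ± 1.11 CPM in naive cells. Frmd4b stood at 48.9 ± 4.48 CPM in inflamed, 36.3 ± 13.5 in naive, 9.62 ± 5.82 in activated and 7.46 ± 2.34 in tolerized cells, with overlap between the inflamed and naive libraries.

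The receptor genes had other neighbours. Those of Il21r over 12 libraries were Enpp4 (r = 0.869), Ggps1 (0.843) and Baat1 (0.838). Those of Il10ra were Gcnt1 (0.947), Itgax (0.944) and Unc119 (0.928), and over the 9 antigen-exposed libraries they were Jdp2 (0.969), Carhsp1 (0.947) and Adap1 (0.942). Itgax had its highest level, 35.9 CPM, in tolerized replicate 3, as Il10ra did.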

How the data were processed

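The deposited table gave the authors' whole read counts per gene, written with commas between groups of 3 digits, for which the unit is listed as other. Per the submitters' processing notes, TopHat2, bedtools and DESeq and the builds mm10 and GRCm38 were named, and their roles and versions are not given in the sources used here. Libraries held 29335723 to 84533097 reads. Of values from 1 to 20, 55.6% to 64.4% were even, against 49.3% to 50.8% of values over 1000, so low counts may not be of independent reads, and intervals and floors cover counting error only.

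CPM used trimmed-mean scaling factors (0.897 to 1.22). Genes with at least 0.258 CPM in 3 libraries and 15 reads in all were tested. They entered 1 limma-trend fit of log2(CPM + 1) with 4 group means (version 3.58.1 in R 4.3.3). The fit was tried on simulated reads with the same relative spread for all genes. Between simulated inflamed and tolerized cells it called 10.4% of genes changed 1.5-fold, 70.1% changed 2-fold and 100% changed 4-fold. A gene that did not pass may thus still differ. No negative binomial model was run, since it is kept for columns listed as counts, and limma-voom on the reads was an alternative. Il4, Il9, Il20, Trac and Csf3r were not analysed here, and some results for single listed genes are not reported here.

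The members and lists were chosen with earlier results of these data known. Named genes are the members, 16 listed partners and regulators, the 2 called genes with the largest change per list and comparison, the 3 genes most correlated with each member, and defining cell markers; exceptions are marked in the text. Same-numbered libraries deviated together from their group means in tolerized and activated cells (correlations 0.19 to 0.60) and in inflamed and activated cells (0.15 to 0.64), which is taken from the data since the labels state no pairing. By these correlations 2 numbers were the best match both ways in the first pair of groups and 1 in the second. In inflamed and tolerized cells the correlations were -0.17 to 0.27.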

Additional observations from a re-analysis of the deposited data

How the results depend on the processing

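Alternatives were 2 other scalings, voom weights, no filter, pseudocounts of 0.1 and 5, a fit of the 2 groups alone, a replicate block, each library left out, and inflamed replicate 3 alone in its group, which was chosen after seeing the data. Of 645 member values under alternatives, 605 moved by less than 1 SD and none that was called changed sign. Some calls against naive cells changed. Beside fits that left out a library, the Il10ra call in inflamed cells was lost with no filter, a pseudocount of 0.1 or a replicate block in 12 libraries. In tolerized cells Il21 became called with limma-voom or a pseudocount of 0.1, Il21r with library size alone and Il10ra without tolerized replicate 3. Il21r became called in inflamed cells without naive replicate 1. The calls of Il10, Il21 and Maf against tolerized cells were lost in the 2 groups alone with a replicate block, and that of Maf against activated cells with inflamed replicate 3 alone.

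Between inflamed and tolerized cells 348 genes of the table and 14 of the 61 listed genes were called. In the 2 groups alone it was 151 and 8, with the replicate block there 0 and 0, and with inflamed replicate 3 alone 54 and 5. Leaving out a library gave 156 (without tolerized replicate 2) to 540 (without tolerized replicate 1) genes of the table, with 185 and 178 without inflamed replicates 1 and 2, and 8 to 18 listed genes. Between inflamed and activated cells 240 and 12 were called. It was 99 in the 2 groups alone, 67 with the replicate block there, and 31 and 4 with inflamed replicate 3 alone. Leaving out a library gave 107 (without activated replicate 2) to 338 genes of the table, with 132 and 124 without inflamed replicates 1 and 2, and 8 to 15 listed genes. Between tolerized and activated cells the counts ran from 0 to 57 and from 0 to 3, the upper values without tolerized replicate 1. Low read numbers limit Il10 and Il21 outside the inflamed group.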
